A study of Homo sapiens with 11 samples.

Results

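The genes described here are 8 enzymes of NADPH supply and of the pentose phosphate pathway, PGLS, PGD, RPIA, RPE, TKT, TALDO1, ME1 and IDH1, taken as the rows with these symbols among the 26485 gene symbols of each count table. All 8 were present in both tables and all 8 passed the filter on low counts at both times. They were selected with the ODC against CTRL results of these same libraries known, so their levels and differences in that contrast are given as a description. Counts of members past a test's threshold stand only beside the share of all genes, and nothing is read from them.

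RNA came from Caki-1-SR clone 1, a single sunitinib-resistant clone of Caki-1, a human clear cell renal cell carcinoma line that was isolated from a skin metastasis. All groups carried this resistance, and the line is kept in medium with 1 µM sunitinib, an inhibitor of receptor tyrosine kinases. ODC libraries came from cells given a combination of 4 drugs, namely the ruthenium compound Rapta-C at 2 µM, the EGFR inhibitor erlotinib at 1 µM, the antidiabetic metformin at 1 µM and the plant sesquiterpene lactone parthenolide at 5 µM, whereas CTRL cells received none of the 4 and are called untreated in one place and sham-treated in another by the study. There were 3 CTRL and 3 ODC libraries at 24 h, and 2 CTRL and 3 ODC libraries at 2 h, 11 in all. The times carry different months in their labels, so time and that month cannot be told apart. Nothing in the labels says that the libraries of a group came from separate cultures, so every p-value measures the spread between these libraries, which may be technical.

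NADPH is the reducing agent that cells use to regenerate glutathione and thioredoxin and to build fatty acids and sterols. The pentose phosphate pathway makes it in an oxidative branch, in which PGLS opens the lactone and PGD oxidises the product to a pentose phosphate, and a non-oxidative branch then returns pentose phosphates to glycolysis. In that second branch RPIA and RPE interconvert the pentose phosphates, and TKT and TALDO1 move carbon units between sugars. Outside the pathway, ME1 makes NADPH in the cytosol from malate and IDH1 makes it there from isocitrate. Several of these genes, TKT, TALDO1, PGD and ME1 among them, are known targets of the transcription factor NRF2, which binds antioxidant response elements near gene starts.

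A 24 h library held 17785229 to 20882856 counts and a 2 h library 25782895 to 31118349. The members had between 741 and 20055 counts in a library. Levels are CPM, counts scaled to a common library total, with one TMM scaling over the 11 libraries, whose factors ran from 0.969 to 1.02. Of the renal epithelial markers, PAX8 averaged 538 CPM in CTRL and 669.8 in ODC at 24 h, while PAX2 and CA9 had at most 4 counts and 1 count in any library. The summed level of the 10 renal epithelial markers ran from 1678 to 2182 CPM in CTRL and from 1418 to 1890 CPM in ODC at 24 h, with KRT8 at 706 and 453 CPM and LHX1 at 38.6 and 13.9 CPM, and the part of this shift in the members' differences was not tested. The 4 immune and the 3 endothelial markers summed to at most 2.68 and 0.989 CPM in any library.

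One library stood apart. CTRL 2 h replicate 1 held 1081 counts of COL3A1, a collagen gene typical of fibroblasts, against 0 to 6 counts in the other 10 libraries. It also held 73 counts of DCN, 65 of LUM and 100 of EPCAM, against at most 3, 4 and 27 elsewhere. COL1A1 was present in every library, at 6140 counts in that one and 1249 to 5135 in the others, and the 4 fibroblast markers summed to 61.0 to 125 CPM in CTRL and 89.7 to 122 CPM in ODC at 24 h. The members' 2 h differences, the differences between times and the 2 h list medians are therefore given with and without it.

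The sequences upstream of the 3 members with the largest positive differences at 24 h are shown first, since antioxidant response elements lie in such regions. They come from RefSeq (GRCh38.p14), run 5′ to 3′ on the strand of the gene, and end at the last base before the first annotated exon. Capitals mark the letters TGACNNNGC, the core of the antioxidant response element, where N is any base and both strands were searched. The stretches are chr6:83431052-83431301 on the minus strand for ME1, chr3:53256053-53256272 on the minus strand for TKT and chr11:747214-747414 on the plus strand for TALDO1.
ME1: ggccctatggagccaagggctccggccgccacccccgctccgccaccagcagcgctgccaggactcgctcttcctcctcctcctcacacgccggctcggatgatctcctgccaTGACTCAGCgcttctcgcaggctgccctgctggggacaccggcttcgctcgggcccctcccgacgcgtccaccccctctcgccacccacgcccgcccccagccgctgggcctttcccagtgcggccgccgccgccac
TKT: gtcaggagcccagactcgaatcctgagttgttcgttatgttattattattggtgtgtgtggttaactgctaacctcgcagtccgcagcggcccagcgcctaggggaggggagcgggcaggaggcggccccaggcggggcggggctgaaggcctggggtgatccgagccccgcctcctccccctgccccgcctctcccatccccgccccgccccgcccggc
TALDO1: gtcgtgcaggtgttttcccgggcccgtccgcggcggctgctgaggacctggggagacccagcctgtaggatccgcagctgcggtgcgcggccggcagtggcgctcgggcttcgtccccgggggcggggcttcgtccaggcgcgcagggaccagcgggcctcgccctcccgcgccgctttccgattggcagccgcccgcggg

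In windows from 250 bases before to 50 bases after each RefSeq start, the core was found for 4 of the 8 members, against 4687 of 35116 windows of all genes (13.3%). There were 9 windows for the 8 genes. ME1 held it on its own strand with the first base 137 bases before the start, and again on the opposite strand 12 bases after the start. RPE held it 151 bases before its RefSeq start, which lies inside the annotated gene. PGD held it on the opposite strand 201 bases before a RefSeq start that also lies inside the annotated gene. IDH1 held it 143 bases before one of its 2 starts, inside the annotated gene as well. The 29-base stretches around these matches are shown to compare their letters, with the match in capitals.
ME1, 137 bases before the start, chr6:83431170-83431198: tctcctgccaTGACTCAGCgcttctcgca
ME1, 12 bases after the start, chr6:83431022-83431050: gctgcagtcaGCACCGTCAccccagcagc
RPE, 151 bases before the start, chr2:210002477-210002505: ggcggacggcTGACAGCGCcccaccccag
PGD, 201 bases before the start, chr1:10398853-10398881: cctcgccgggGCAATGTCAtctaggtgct
IDH1, 143 bases before the start, chr2:208255196-208255224: cccctctcgcTGACTCCGCccatcccacg

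A match is a description of the letters and not a binding site, and no match says only that these letters are not in this window. TKT and TALDO1 held no match there, while ME1, PGD, RPE and IDH1 did. Whether these letters bear on the differences at 24 h was not tested.

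At 24 h TKT, TALDO1 and ME1 were higher in every ODC library than in every CTRL library, by 1.40-fold, 1.45-fold and 1.499-fold. The oxidative branch enzymes PGLS and PGD and the pentose phosphate converting enzymes RPIA and RPE had overlapping groups and log2 differences between −0.17 and 0.16. IDH1 was lower on average, at 0.747-fold, with overlapping groups. None of the 8 members had an adjusted p under 0.05 in edgeR's quasi-likelihood test, against 0.189% of the 12689 genes tested (24 genes, 21 higher and 3 lower). An unadjusted p under 0.05 was found for 3 members and for 1553 genes (12.2%). The likelihood ratio test of edgeR called 401 of the 12689 genes and DESeq2 called 378. Each of these tests called 3 members, TKT, TALDO1 and ME1. The members were selected on this contrast, and these counts are no support for it.

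**Figure D1:**
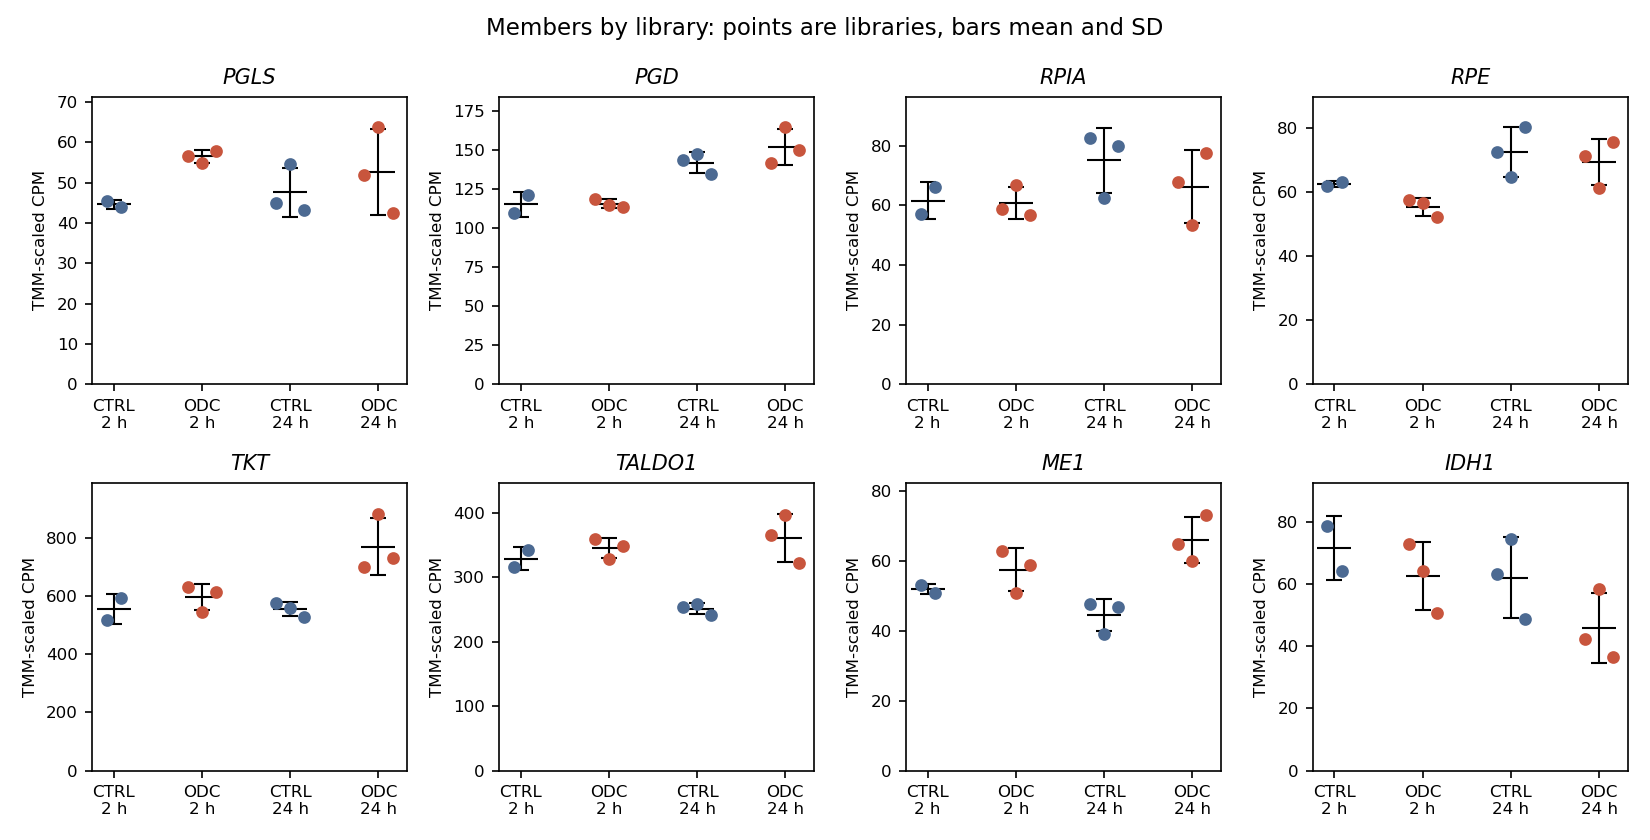
Level of each of the 8 enzymes in TMM-scaled CPM (y axis, from 0) in the CTRL and ODC libraries at 2 h and 24 h. Points are libraries and black bars are the mean and SD of a group; the 3 ODC 24 h points of TKT, TALDO1 and ME1 lie above their 3 CTRL 24 h points, while the 2 h groups of these genes overlap.

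TKT, transketolase, stood at 577, 559 and 529 CPM in the CTRL libraries and at 698, 879.8 and 729.5 CPM in the ODC libraries at 24 h. All ODC libraries were above all CTRL libraries, and ODC replicate 2 was the highest. The means were 555 ± 24.3 and 769 ± 97.1 CPM (SD, n = 3 each), a log2 fold change of 0.49 with a standard error of 0.11.

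TALDO1, transaldolase, which works beside TKT in the same branch, stood at 254, 258 and 242 CPM in CTRL and at 365, 395.5 and 321 CPM in ODC. The lowest ODC library was above the highest CTRL library. The means were 251 ± 8.62 and 361 ± 37.2 CPM (SD, n = 3 each), a log2 fold change of 0.54 with a standard error of 0.10.

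ME1, the cytosolic malic enzyme, stood at 47.7, 39.2 and 46.7 CPM in CTRL and at 64.9, 60.1 and 73.3 CPM in ODC. The groups did not overlap, and ODC replicate 3 was the highest. The means were 44.6 ± 4.63 and 66.1 ± 6.67 CPM (SD, n = 3 each), a log2 fold change of 0.58 with a standard error of 0.12. The groups were apart in this way, with every ODC library above every CTRL library, for 3 members and for 8.5% of all genes tested at 24 h. No member had every ODC library below every CTRL library, against 9.36% of all genes.

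IDH1, the cytosolic isocitrate dehydrogenase, stood at 63.3, 74.6 and 48.8 CPM in CTRL and at 42.4, 58.6 and 36.7 CPM in ODC. One ODC library, replicate 2, lay above the lowest CTRL library. The means were 62.2 ± 12.9 and 45.9 ± 11.4 CPM (SD, n = 3 each), a log2 fold change of −0.42 with a standard error of 0.21. Single libraries moved this value, to −0.27 without CTRL replicate 2, −0.28 without ODC replicate 3 and −0.65 without ODC replicate 2. ME1 and IDH1, which both make cytosolic NADPH, thus differed in opposite directions on average.

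The other 4 members had overlapping groups at 24 h and log2 differences smaller in size. PGD, a dehydrogenase of the oxidative branch that makes NADPH, averaged 142 ± 6.54 CPM in CTRL and 152 ± 11.5 CPM in ODC (SD, n = 3 each). PGLS, the lactonase before it, averaged 47.7 ± 6.09 and 52.7 ± 10.7 CPM. RPIA, the isomerase, averaged 75.1 ± 11.05 and 66.3 ± 12.2 CPM, and RPE, the epimerase, 72.6 ± 7.78 and 69.5 ± 7.30 CPM. The standard errors of these 4 log2 differences ran from 0.096 for PGD to 0.17 for PGLS. RPE overlaps KANSL1L on the opposite strand, which had 75 to 322 counts in a library, and the strand setting of the counting is not given in the sources used here. The median log2 difference of the 8 members was 0.14, beside 0.00089 for all genes tested.

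**Figure D2:**
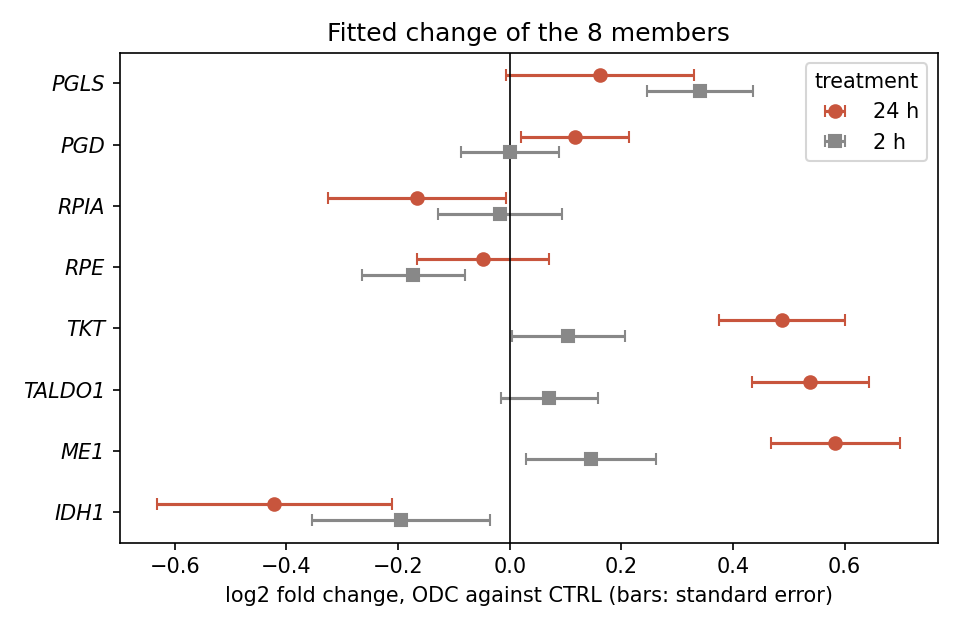
Fitted log2 fold change of ODC against CTRL (x axis) for each of the 8 enzymes, with its standard error as a bar. Circles are 24 h and squares are 2 h; TKT, TALDO1 and ME1 lie between 0.49 and 0.58 at 24 h and between 0.07 and 0.15 at 2 h.

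The library numbers at 24 h alternate between CTRL and ODC, and adjacent numbers were taken as pairs, a pairing that the labels do not state and that an earlier analysis of these data had proposed. Within these pairs the log2 ratio of ODC to CTRL was 0.28, 0.66 and 0.46 for TKT. For TALDO1 it was 0.52, 0.61 and 0.41, and for ME1 0.44, 0.61 and 0.65. For IDH1 it was −0.58, −0.35 and −0.41, so that IDH1 was lower in ODC in all 3 pairs although its groups overlapped. RPIA was lower in all 3 pairs too, at −0.28, −0.23 and −0.05, as was RPE, at −0.03, −0.08 and −0.09. PGLS and PGD each had 1 pair of the opposite sign. With the pairs in the edgeR fit, 4 of the 8 members had an adjusted p under 0.05, TKT, TALDO1 and ME1 higher and IDH1 lower, against 5.41% of all genes. This fit rests on the same contrast that chose the members, so nothing is read from that count either. Leaving out ODC 24 h replicate 3 from the unpaired fit brought TALDO1 under 0.05, among 70 genes called in that fit. No other left-out library brought a member there.

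**Figure D3:**
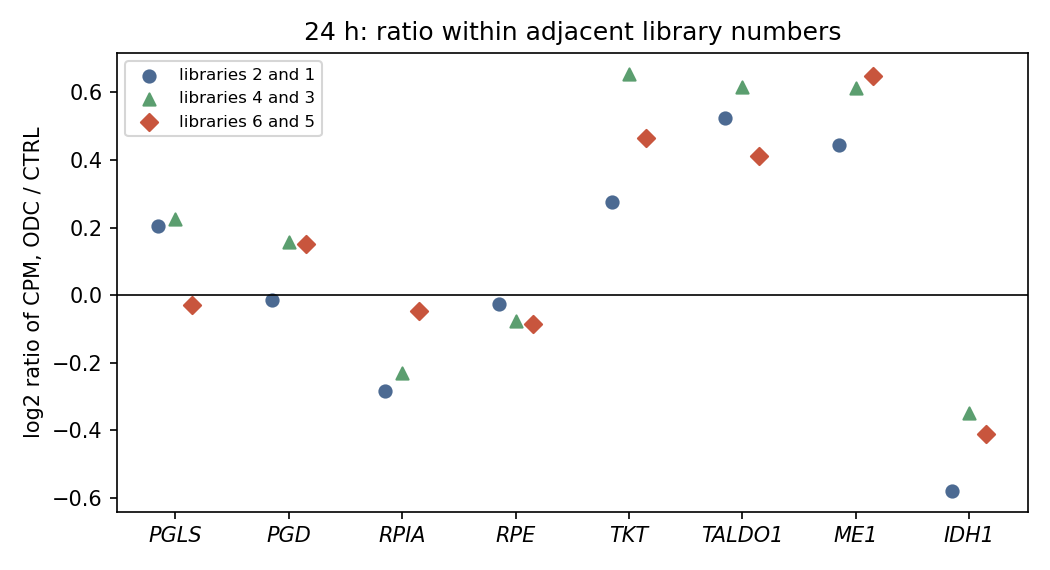
Log2 ratio of CPM, ODC over CTRL (y axis), within adjacent library numbers at 24 h for each of the 8 enzymes (x axis). Each marker shape is 1 pair of libraries; TKT, TALDO1 and ME1 are above 0 in all 3 pairs, and IDH1, RPIA and RPE are below 0 in all 3.

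At 2 h the 3 genes that stood apart at 24 h had overlapping groups and smaller log2 differences than at 24 h. TKT stood at 518 and 591 CPM in CTRL and at 630.3, 545 and 615 CPM in ODC, with overlapping groups. TALDO1 stood at 316 and 342 CPM in CTRL and at 359.7, 329 and 348 CPM in ODC, and ME1 at 53.0 and 51.0 CPM in CTRL and at 62.9, 50.9 and 58.9 CPM in ODC. Their log2 differences were 0.10, 0.07 and 0.15, with standard errors of 0.10, 0.087 and 0.12. Without CTRL 2 h replicate 1 they were 0.02, 0.02 and 0.18. Without CTRL 2 h replicate 2 they were 0.21, 0.14 and 0.12. Each of these fits left a lone control, so the values at 2 h depend on which control library is kept.

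PGLS was the member with the largest difference at 2 h. It stood at 45.4 and 43.9 CPM in CTRL and at 56.7, 54.9 and 58.0 CPM in ODC, so all ODC libraries were above both CTRL libraries, as for 7.92% of all genes at 2 h. The log2 difference was 0.34 with a standard error of 0.095, and 0.37 without CTRL 2 h replicate 1. RPE stood at 61.8 and 63.2 CPM in CTRL and at 57.6, 56.7 and 52.2 CPM in ODC, all below both CTRL libraries, as for 7.25% of all genes. Its log2 difference was −0.17 with a standard error of 0.093, and −0.18 without that library.

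IDH1 stood at 79.0 and 64.4 CPM in CTRL and at 73.0, 64.2 and 50.9 CPM in ODC at 2 h, a log2 difference of −0.19 that was −0.03 without CTRL 2 h replicate 1. PGD and RPIA had log2 differences of 0.00087 and −0.02, and of −0.06 and −0.11 without that library. The median over the 8 members was 0.036, beside −0.0060 for all genes, and it turned to −0.0054 without CTRL 2 h replicate 1. At 2 h the quasi-likelihood test of edgeR called 0 members and 0% of the 13332 genes. Its unadjusted p was under 0.05 for 1 member and 312 genes, and the likelihood ratio test and DESeq2 called 5 genes and 1 gene, with no member among them. Leaving out CTRL 2 h replicate 2, which leaves replicate 1 as the lone control, gave 42 called genes and no member.

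The difference at 24 h exceeded that at 2 h by 0.37 for TKT (standard error 0.16), 0.45 for TALDO1 (0.13) and 0.42 for ME1 (0.17) on the log2 scale. For the other 5 members it ran from −0.25 for IDH1 to 0.11 for RPE. Without CTRL 2 h replicate 1 the values were 0.46, 0.50 and 0.39 for TKT, TALDO1 and ME1 (standard errors 0.18, 0.16 and 0.20), and they ran from −0.40 for IDH1 to 0.17 for PGD among the others. The level in CTRL was not the same at both times. TALDO1 averaged 329 ± 18.3 CPM in CTRL at 2 h (SD, n = 2) and 251 ± 8.62 CPM in CTRL at 24 h, so that its 24 h ODC mean of 361 CPM was near the 2 h ODC mean of 345 ± 15.7 CPM. ME1 averaged 52.0 ± 1.45 and 44.6 ± 4.63 CPM in the 2 controls. TKT averaged 555 CPM in both, and its 24 h ODC level was above every 2 h library. These levels across times are given without a test.

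Per kilobase of the annotated transcript, the order of levels in CTRL at 24 h was led by the 2 carbon-transferring enzymes. TALDO1 stood at 209 ± 7.19 CPM per kb and TKT at 185 ± 8.12. PGD followed at 62.5 ± 2.88, PGLS at 47.3 ± 6.04 and RPIA at 41.4 ± 6.09, and PGLS and RPIA did not differ beyond their spread. IDH1 at 26.8 ± 5.59 and RPE at 22.8 ± 2.45 did not differ beyond their spread either, and ME1 was lowest at 13.4 ± 1.39 CPM per kb (SD, n = 3 throughout). In ODC at 24 h ME1 stood at 19.8 ± 2.00 and IDH1 at 19.8 ± 4.91 CPM per kb, so the 2 cytosolic NADPH sources outside the pathway had the same mean level per length there. TKT (chr3:53224712-53256052), TALDO1 (chr11:747415-765012), ME1 (chr6:83210402-83431051) and IDH1 (chr2:208236229-208266074) are given in hg38 from GENCODE release 44.

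Across the 11 libraries, with log2 levels centred within each time, TKT and TALDO1 had a Pearson correlation of 0.94, and ME1 correlated with each of them at 0.75. ME1 and IDH1 correlated at −0.71, and PGLS and RPE at −0.93. RPIA, RPE and IDH1 correlated negatively with the mean of the other members, at −0.70, −0.58 and −0.55. The libraries share treatment, depth and any pairing, so these values are a description. The 5 genes most like the mean of the members among 12603 were ADI1, SIRT2, PGAP3, IFT57 and MAD2L2, with correlations from 0.91 to 0.93 over the 11 libraries. Their log2 differences at 24 h ran from 0.28 for IFT57 to 0.61 for PGAP3.

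Of 11 tested genes among 15 other pentose-linked genes, 0 were called at 24 h by edgeR's quasi-likelihood test and 4 had an unadjusted p under 0.05, against 12.2% of all genes, with a list median of 0.06 beside 0.00089 for all genes. RBKS, which phosphorylates ribose, had a log2 difference of 0.53 (adjusted p = 0.312, edgeR). TIGAR, a phosphatase that steers sugar towards the pentose pathway, had one of 0.36 (adjusted p = 0.318, and 0.0392 with the pairs in the fit). PRPS2, which makes the nucleotide precursor from pentose phosphate, had one of −0.26 (adjusted p = 0.316).

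Most genes of the list of other NADPH sources and NAD kinases had lower means in ODC. The list is broad, and some of its genes, such as MTHFD1L and the NAD kinases, do not make NADPH themselves. Of its 14 genes, 11 had a negative and 3 a positive log2 difference at 24 h, with a median of −0.16. In 7 every ODC library was below every CTRL library, against 9.36% of all genes. None of the 14 was called by the quasi-likelihood test of edgeR, and 5 had an unadjusted p under 0.05 (12.2% of all genes). With the pairs in the fit 3 were called lower and 0 higher. That fit called 5.41% of all genes in either direction (425 higher and 261 lower). ALDH1L2, the mitochondrial folate dehydrogenase that makes NADPH, stood at 74.1, 96.7 and 64.9 CPM in CTRL and at 33.4, 47.7 and 36.6 CPM in ODC. The groups did not overlap, and the log2 difference was −0.99 with a standard error of 0.19 (edgeR adjusted p = 0.0989, and 0.00523 with the pairs). MTHFD2, another mitochondrial folate enzyme, had a log2 difference of −0.66 (edgeR adjusted p = 0.176, and 0.0280 with the pairs). GLUD1, glutamate dehydrogenase, had one of −0.36 (edgeR adjusted p = 0.177, and 0.0463 with the pairs).

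The carbon that feeds ME1 and IDH1 passes through citrate and malate enzymes, of which 15 of 15 were tested and 0 were called at 24 h. Their median was −0.04. An unadjusted p under 0.05 was found for 1 (12.2% of all genes). With the pairs in the fit 1 was called lower and 0 higher (5.41% of all genes in either direction, 425 higher and 261 lower). SLC25A12, a mitochondrial aspartate-glutamate carrier, had a log2 difference of −0.45 (edgeR adjusted p = 0.213, and 0.0335 with the pairs). GOT1 and MDH2, the transaminase and dehydrogenase of the malate-aspartate shuttle, had log2 differences of −0.27 and −0.08, with overlapping groups.

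Among enzymes that use NADPH, 22 of 25 were tested and 2 rose at 24 h, against 0.189% of all genes called in either direction. By sign alone 14 had a positive and 8 a negative log2 difference, and the median was 0.06. An unadjusted p under 0.05 was found for 5 of them (12.2% of all genes). With the pairs in the fit 4 were called higher and 0 lower (5.41% of all genes in either direction, 425 higher and 261 lower). NQO1, a quinone reductase, stood at 198, 186 and 224 CPM in CTRL and at 575, 602 and 573 CPM in ODC. The log2 fold change was 1.54 with a standard error of 0.10 (edgeR adjusted p = 0.00216). BLVRB, biliverdin reductase B, averaged 30.3 ± 4.33 CPM in CTRL and 75.6 ± 13.5 CPM in ODC (SD, n = 3 each), with every ODC library above every CTRL library and a log2 fold change of 1.34 with a standard error of 0.17 (edgeR adjusted p = 0.0368). The BLVRB call was lost without CTRL replicate 1, 2 or 3 or ODC replicate 1 of 24 h, with adjusted p up to 0.231 over the 16 unpaired alternatives. The next 3 genes were chosen after their values were seen. AKR1B1, an aldose reductase, averaged 756 ± 60.8 CPM in CTRL and 1795 ± 692 CPM in ODC (SD, n = 3 each), a log2 difference of 1.27 with a standard error of 0.26 (edgeR adjusted p = 0.116, and 0.0276 with the pairs). FASN, fatty acid synthase, had a log2 difference of −0.36 (edgeR adjusted p = 0.439, and 0.0704 with the pairs). It was the 1 tested gene of the list with every ODC library below every CTRL library (9.36% of all genes). In 6 genes of the list every ODC library was above every CTRL library (8.5% of all genes). GSR, glutathione reductase, had a log2 difference of 0.63 (edgeR adjusted p = 0.0685, and 0.0104 with the pairs).

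NRF2 itself, the product of NFE2L2, had a log2 difference of −0.03 at 24 h and is named here after its value was seen. Of the 10 genes of NRF2 and its regulators, 0 were called at 24 h by edgeR's quasi-likelihood test, and the median was 0.06. An unadjusted p under 0.05 was found for 2 (12.2% of all genes). With the pairs in the fit 2 were called higher and 0 lower (5.41% of all genes in either direction, 425 higher and 261 lower). SQSTM1, a selective autophagy receptor that binds KEAP1, had a log2 difference of 0.81 (edgeR adjusted p = 0.128, and 0.0225 with the pairs). MAFK, a partner of NRF2 on DNA, had one of 0.59 (edgeR adjusted p = 0.270, and 0.0161 with the pairs), and KEAP1, the adaptor that marks NRF2 for degradation, one of 0.18 (edgeR adjusted p = 0.447). At 2 h none of the 5 lists had a called gene, with 0, 0, 1, 1 and 0 genes at an unadjusted p under 0.05 in the order above, against 2.34% of all genes, and their medians ran from 0.025 to 0.074. Without CTRL 2 h replicate 1 the medians ran from −0.03 to 0.021, again with 0 called genes and with 1 gene, of the citrate and malate list, at an unadjusted p under 0.05.

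**Figure D4:**
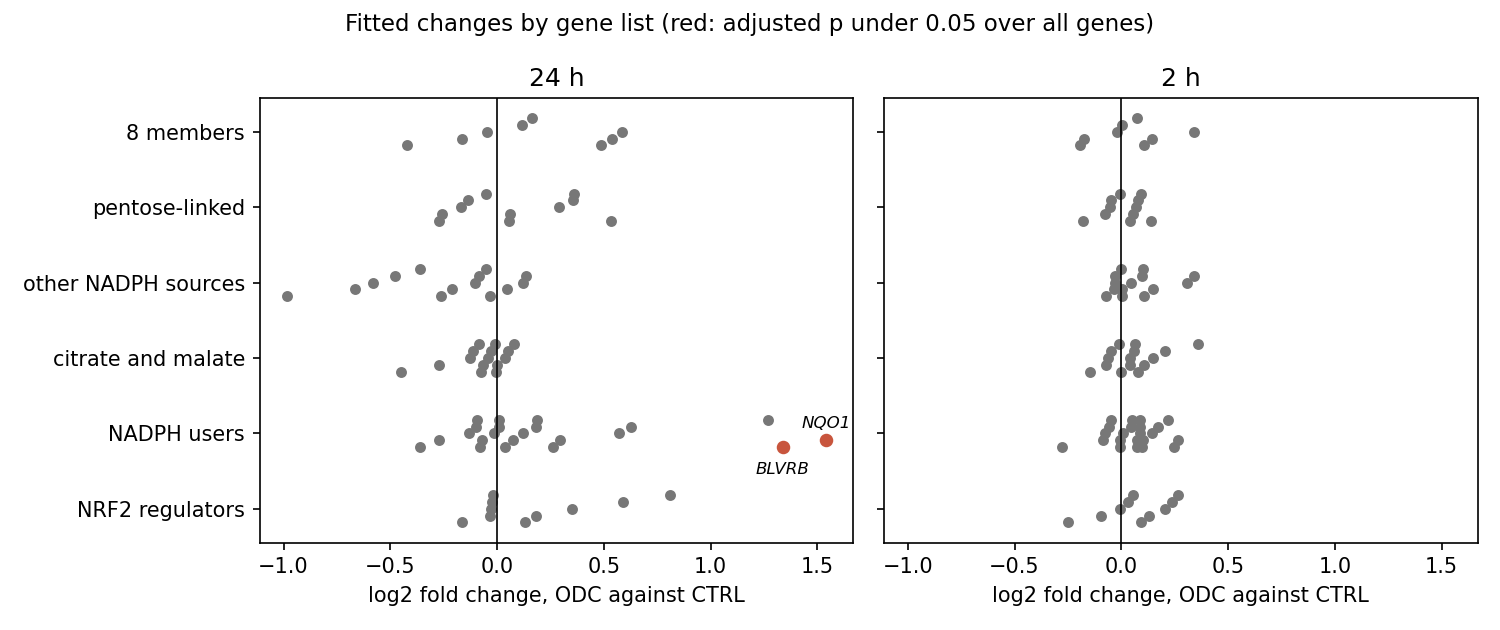
Fitted log2 fold change of ODC against CTRL (x axis) for each tested gene of the 8 enzymes and the 5 other lists (rows), at 24 h on the left and 2 h on the right. Red points passed the 0.05 threshold after adjustment over all genes; they are NQO1 and BLVRB at 24 h, and there are none at 2 h.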

How the data were processed

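Stranded mRNA libraries were sequenced as single-end reads. Per the labels and the study's methods, the authors aligned them with STAR to hg38 and deposited raw HTSeq counts per gene symbol, without normalization. The submitters' processing notes name STAR 2.7.0f, HTSeq 0.9.1 and edgeR 3.26.8; the annotation and strand setting are not given in the sources used here.

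From these counts ODC was compared with CTRL at each time with edgeR 4.0.16 in R 4.3.3 (quasi-likelihood F test in its earlier form, TMM, and filterByExpr at its minimum count, 10, and total, 15), with two-sided p adjusted by Benjamini-Hochberg over the 12689 (24 h) or 13332 (2 h) genes that passed. A joint fit of 13333 genes gave the contrast between times. The test at each time was also run on simulated data with known changes. All of these were larger than the members' differences, so that run does not speak to differences of the members' size. Alternatives were 2 other filters, 3 scalings, other edgeR tests, DESeq2 1.42.0, a joint fit, adjacent 24 h libraries as pairs and each library left out. The deviations from group means correlated at 0.18, 0.57 and 0.43 within the pairs. Libraries that are not adjacent were not compared in this way, so these values do not show that adjacent libraries share anything.

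The floor of 3 counts equalled 0.144 to 0.169 CPM in 24 h libraries and 0.0964 to 0.116 in those of 2 h, for counting error only. Replicates differed by more than counting noise, with a chi-square per gene from 18.7 to 58.0. The members and lists were chosen with earlier results of these data known. From each other list the text names the genes with an adjusted p under 0.05, or else the 3 with the smallest p at 24 h, and the 5 genes most like the members' mean; others are marked as chosen after their values were seen. Log2 levels for the correlations used 0.5 added counts. Some single genes are left out.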

Additional observations from a re-analysis of the deposited data

Results flagged for a closer look

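NQO1 met the rule for a difference between times. Its log2 difference between ODC and CTRL was larger at 24 h than at 2 h by 1.42, with a standard error of 0.17 (edgeR adjusted p = 0.0174 for the difference over 13333 genes, of which 2 passed). At 2 h NQO1 averaged 444 ± 41.4 CPM in CTRL (SD, n = 2) and 476 ± 66.6 CPM in ODC (SD, n = 3), while the 24 h means were 203 ± 19.7 and 583 ± 15.9 CPM (SD, n = 3 each). Without CTRL 2 h replicate 1, the library that stood apart, the difference was 1.51 with a standard error of 0.19 and no longer passed (edgeR adjusted p = 0.0695 over 13561 genes, of which 1 passed). CTRL replicate 2 alone stood at 473 CPM at 2 h. CTRL was thus lower at 24 h than at 2 h, and time and label month cannot be told apart.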

How the results depend on the processing

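Of the 8 members, edgeR's likelihood ratio test called 3 at 24 h, DESeq2 3, the joint fit of the 11 libraries 2 and the paired fit (replicate block of adjacent 24 h libraries) 4, against 0 as reported, and leaving out 1 library gave 0 to 1. For the other 5 lists the counts were 7, 8, 4 and 11 in the same order, 5 when genes with as few as 1 count entered the test and 1 to 3 with a library left out, against 2. For all genes they were 401, 378, 186 and 686, and 92 with that wider filter, against 24. A left-out library gave 2 to 70, with 2 without CTRL replicate 1, 3 without ODC replicate 1, 4 without CTRL replicate 2, 12 without CTRL replicate 3 and 70 without ODC replicate 3. All 24 genes were also called in the paired fit. The members' median at 24 h ran from 0.035 to 0.22 with a library left out, and the median at 2 h from −0.0054 to 0.11. At 2 h the likelihood ratio test called 5 genes, DESeq2 1 and left-out libraries 0 to 42, against 0. TKT, TALDO1, ME1, IDH1, PGD and RPIA kept their direction at 24 h under all 17 alternatives. PGLS at 24 h reached −0.0098 and RPE 0.03 with a library left out. PGD at 2 h was 0.080 without CTRL 2 h replicate 2. Leaving out CTRL 2 h replicate 1 from the contrast between times, chosen after the data were seen, kept the direction of all 8 members and took the adjusted p of NQO1 to 0.0695 (edgeR). The causes were not tested. The lowest count of a member in a library was 741.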
